A study of Mus musculus with 2 samples.

Results

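GATA4 binding summits in soft-masked genome sequence numbered 1992 of the 24050 summits on chromosomes 1 to 19 and X, or 8.28% (95% Wilson interval 7.94% to 8.64%). A summit was the single base of highest signal in a peak, and it was a member when that base was written in lower case in the mm10 reference (GRCm38.p6). Lower case marks sequence that the providers of the reference flagged as repeated or of low complexity. The other 22058 summits, in unmasked sequence, were the comparison.

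Peaks came from chromatin immunoprecipitation followed by sequencing (ChIP-seq) of GATA4 in whole liver of adult mice. There was 1 group of 2 samples from healthy animals, biological replicates 1 and 2 per the labels, with no treatment or altered genotype named and an age given as unknown. Both carried the same tissue and donor identifiers, so a difference between them may be technical, and whole liver mixes cell types to which a peak cannot be assigned. The authors' list made from both replicates, at an irreproducible discovery rate (IDR) threshold, was the main set. Of its 24083 peaks, 33 on other sequences were left out.

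GATA4 is a zinc-finger transcription factor that binds the word GATA with preferred neighbours, and in adult liver GATA4 is best known as a regulator of the sinusoidal endothelium. Much of a mammalian genome is made of copies of transposable elements and of short tandem repeats. Some of those copies carry words that transcription factors bind. Reads from near-identical copies are hard to place, so peaks there depend on sequence that still differs between copies.

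The label of repeat sequence held only in part. The masked run at a member's summit had a median length of 29 bases, with quartiles of 23 and 58 bases, a shortest run of 19 and a longest of 4130. Of the members, 1392 (69.9%) lay in runs under 50 bases, 600 in runs of at least 50 and 54 in runs of at least 300. Within 50 bases to each side of the summit, members had a mean of 45.1 masked bases and unmasked summits 5.71. Most members were thus summits on a short masked stretch with unmasked sequence on both sides, and 93 windows were masked throughout. No annotation of repeat families was used here, so the members are called masked summits and no family is named.

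The sequences below show the kinds of masked summit that the results turn on. They are the summit base and 50 bases of the mm10 reference to each side. Lower case in the printed sequences does not mark the mask. The mask covered 27 bases of the Cdx4 window, 22 of the Plxnc1 window and 54 of the Gm10295 window. Capitals mark WGATAR on either strand, which is AGATAA or AGATAG or TGATAA or TGATAG, and on the other strand TTATCT or CTATCT or TTATCA or CTATCA. The first 3 are among the 10 strongest masked peaks, the first in a masked run of 127 bases and the other two in runs of 27 and 22 bases.
Pzp promoter, chr6:128527300-128527400, plus strand: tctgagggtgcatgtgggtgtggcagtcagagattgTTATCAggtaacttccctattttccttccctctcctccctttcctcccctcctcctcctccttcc
near Cdx4, chrX:103287046-103287146, plus strand: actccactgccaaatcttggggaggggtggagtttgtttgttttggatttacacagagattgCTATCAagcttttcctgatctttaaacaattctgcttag
Plxnc1 intron, chr10:94801020-94801120, plus strand: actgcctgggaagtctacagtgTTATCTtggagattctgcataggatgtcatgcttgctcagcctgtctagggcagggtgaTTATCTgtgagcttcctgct
Tandem repeats of the unit AC, the same as GT on the other strand, made up a further kind. The next window holds such a repeat and no WGATAR.
near Gm10295, chr7:71370234-71370334, plus strand: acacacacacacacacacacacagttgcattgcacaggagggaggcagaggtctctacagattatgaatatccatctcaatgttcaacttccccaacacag
Another kind was a tandem repeat that itself contains the site, here 11 copies in 2 blocks in an intron of the annotated Ugt1a10 locus.
Ugt1a10 intron, chr1:88143315-88143415, plus strand: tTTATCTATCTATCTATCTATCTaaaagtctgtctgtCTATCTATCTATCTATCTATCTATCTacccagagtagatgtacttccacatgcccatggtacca
The last kind was a dispersed sequence present in many copies. The next 4 are members of the largest group of similar windows, 66 bases each, on the strand of the group's central member, with the shared TTATCT in capitals. In the labels, near names the protein-coding gene with the nearest start site, at 640810 bp for Ddx18 and 194761 bp for Mgat4c.
near Mgat4c, chr10:101486680-101486745, plus strand: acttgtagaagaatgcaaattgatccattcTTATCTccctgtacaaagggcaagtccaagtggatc
Aasdhppt intron, chr9:4300600-4300665, plus strand: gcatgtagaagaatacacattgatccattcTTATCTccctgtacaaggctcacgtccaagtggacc
near Ddx18, chr1:122208746-122208811, minus strand: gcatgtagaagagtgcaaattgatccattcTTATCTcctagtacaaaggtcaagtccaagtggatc
Car1 intron, chr3:14774674-14774739, plus strand: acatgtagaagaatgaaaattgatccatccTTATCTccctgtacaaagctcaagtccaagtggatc

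Masked bases were rarest at the summits themselves. At positions 500 bp to each side 10079 of 48100 bases were masked (21%, interval 20.6% to 21.3%), which gave an odds ratio of 0.341 for the summit against its flanks. By Fisher's exact test, two-sided here and in all later uses, p lay below the smallest number that double precision can hold. The share rose on both sides of the summit, to 11.5% at 100 bp before and 11.6% at 100 bp after it, and to 24.1% and 24% at 1000 bp. It stood at 25.7% and 25.3% at 2000 bp, still under the 34.3% of all bases of chromosomes 1 to 19 and X outside gaps. The share of summits that were masked ran from 7.03% to 9.36% over chromosomes 1 to 19 and was 9.15% on X. Windows are not replicates of a condition, so all tests over summits measure counting error within this list only.

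**Figure D1:**
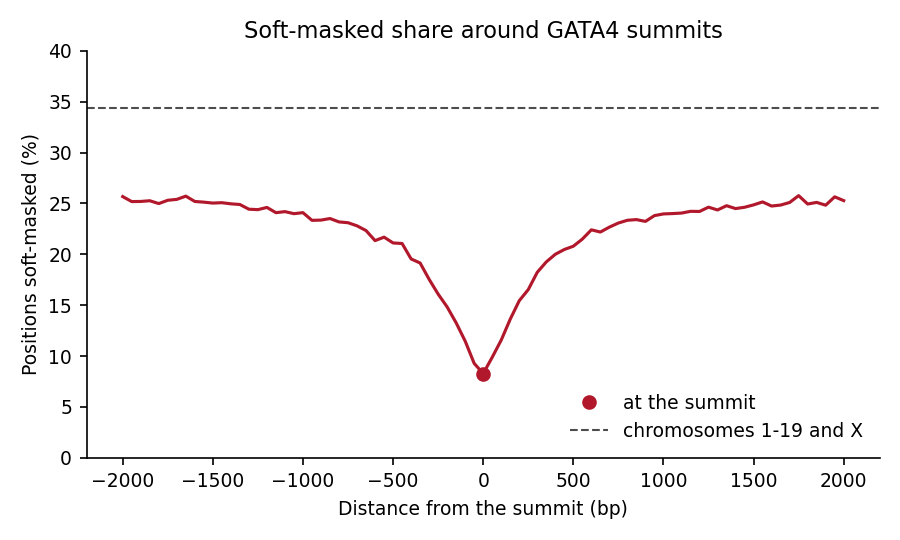
Share of positions that are soft-masked (percent, vertical axis) by distance from the summit in bp (horizontal axis) over 24050 summits; the dot is the summit, at 8.28%, and the dashed line the 34.3% of chromosomes 1 to 19 and X. The share falls toward the summit from both sides.

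Most members had sequence that occurs once. Of the members, 1464 (73.5%, interval 71.5% to 75.4%) had only 36-base words that occur once in the mm10 chromosomes within 100 bp of the summit. For unmasked summits the share was 95.8% (Fisher's exact test, p = 4.36e-216). At most 90% of the words were unique in 354 members (17.8%) and in 457 unmasked windows (2.07%). Only 2 members had no unique word. Read length is not given in the sources used here, and 36 bases was a fixed choice.

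By the summit base alone, the difference in WGATAR between masked and unmasked summits did not pass the test, and it changed sign with how members were defined. It was present within 50 bp of 1072 masked summits (53.8%, interval 51.6% to 56.0%) and of 52.7% of unmasked ones, while 52.8% of all summits carried it. The difference of 1.11 percentage points had an interval of -1.18 to 3.39 (Fisher's exact test, adjusted p = 0.595 over 22 motifs). The difference was -7.37 points with masked runs of at least 50 bases (adjusted exact p = 0.00231), -11.9 in replicate 1's own list (adjusted exact p = 7.58e-06) and -4.13 without promoter peaks (adjusted exact p = 0.00894). With windows of 100 bp to each side it was 3.38 (adjusted exact p = 0.014). The stricter AGATAA was present at 28.1% and 27.2%. Masked flanks 500 bp away carried WGATAR in 14.0% of windows and unmasked flanks in 16.6%. Flanks came from all summits and were sorted by the mask of their own central base. A masked flank need not lie beside a masked summit. Masked summits exceeded masked flanks with an odds ratio of 7.18 (interval 6.47 to 7.97), and unmasked summits exceeded unmasked flanks with one of 5.61. The ratio of these odds ratios was 1.28 (interval 1.14 to 1.43, normal approximation, n = 1992 masked summits, adjusted p = 0.00013). That ratio was 0.757 in replicate 1's own list, where the direction turned. It was 1.08 with masked runs of at least 50 bases at summits and flanks, 1.09 in the conservative list and 1.18 with AGATAA. None of these 3 passed the threshold. Summits and flanks were not matched by length of the masked run or by genomic class in the main ratio.

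The site itself was often not wholly inside the mask. Among members with WGATAR, the one nearest to the summit was wholly masked in 335 of 1072 (31.2%), against 2.20% at unmasked summits. It lay within 20 bases of the summit in 50.3% of members and 57.9% of unmasked summits with a site, at median distances of 19.5 and 17.5 bases. The 1248 members within 10 bases of the edge of their masked run carried WGATAR in 56.5% of windows, and the 744 deeper ones in 49.3%. Just outside the rule, the 1277 unmasked summits with a masked base within 10 bases carried it in 56.7%. The shares just inside and just outside the edge of the mask lay close together. The 20781 unmasked summits with no masked base within 10 bases carried WGATAR in 52.5%. Windows with 4 or more WGATAR numbered 19 among members (0.954%) and 14 among unmasked summits (0.0635%).

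The length of the masked run and the presence of tandem repeats separated the members. WGATAR was present in 57.1% of the 728 members in runs of 19 to 24 bases, in 57.8% of the 664 in runs of 25 to 49, in 40.5% of the 363 in runs of 50 to 99, and in 52.7% of the 237 in longer runs. Perfect tandem runs of at least 16 bases with a unit of 1 to 4 bases were found in 322 member windows (16.2%) and in 191 unmasked ones (0.866%). Of the member windows, 236 held the unit AC (11.8%), 53 held AG, and 16 held AGAT. Among the 236 members with an AC run 32.6% carried WGATAR (interval 27.0% to 38.8%), and among the 1670 members without any tandem run 57.1% did (interval 54.7% to 59.5%). The AGAT unit contains WGATAR, and all 16 such members carried it. Without windows of tandem runs in either group, a choice made after seeing the data, masked summits carried WGATAR more often than unmasked ones by 4.39 percentage points (interval 1.92 to 6.84). Within classes that difference was 6.22 points at promoters, -3.86 in introns and 3.59 in intergenic sequence. None of these passed the threshold (Fisher's exact test, adjusted p = 0.0969 for each). Over all summits, promoters held 11.4% of masked and 22.5% of unmasked ones. The part of genomic class in the pooled difference was not tested.

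The difference between masked and unmasked summits also depended on where they lay. At promoters, within 1 kb of a protein-coding start site, 75 of 228 masked summits (32.9%) and 25.4% of unmasked ones carried WGATAR (adjusted p = 0.0261, Fisher's exact test over 4 classes). In introns the order was the opposite, with 509 of 922 masked summits (55.2%) and 62.0% of unmasked ones (adjusted exact p = 0.000272). In intergenic sequence the shares were 58.1% and 59.5% (adjusted exact p = 0.602), but the difference was -16.9 points with masked runs of at least 50 bases (adjusted exact p = 1.27e-07). The promoter call missed the threshold under 6 of 12 alternatives, among them without tandem runs, where the difference was 6.22 points, and turned in replicate 1's own list, at -25.5 points. The intron call missed it under 3 of 12, at -3.86 points without tandem runs, -3.75 with AGATAA and -4.88 with unique 36-base words only.

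**Figure D2:**
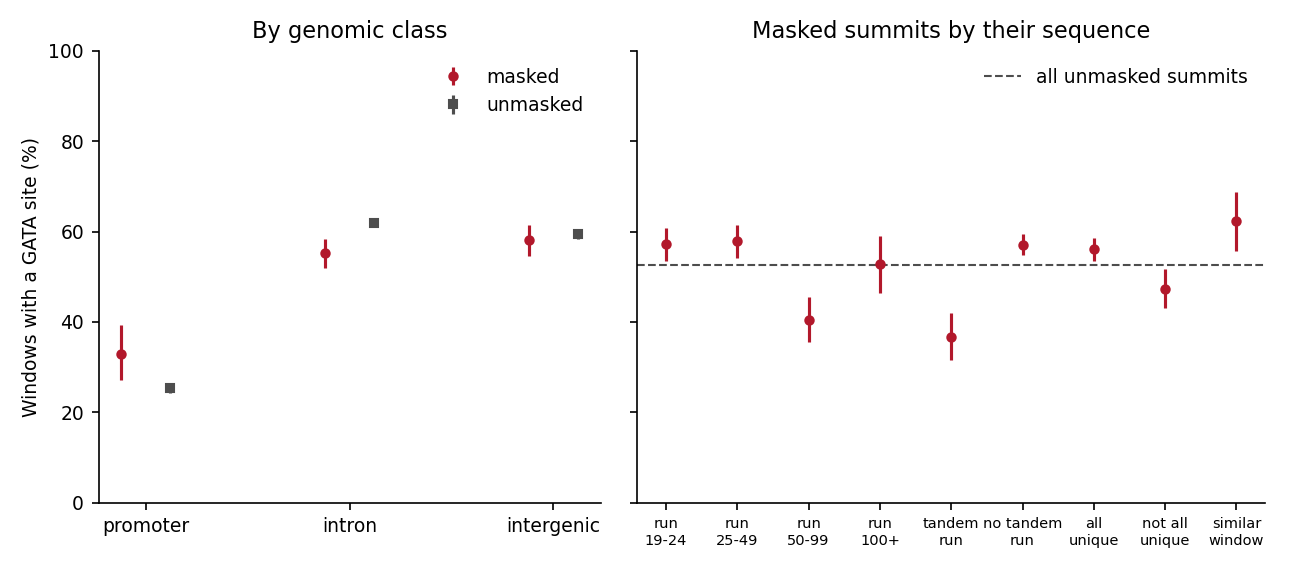
Share of windows of 50 bases to each side of the summit with WGATAR (percent, vertical axes) with 95% Wilson intervals. Left, masked (circles) and unmasked (squares) summits by class, with masked ones higher at promoters (32.9% against 25.4%) and lower in introns (55.2% against 62.0%). Right, masked summits by length of the masked run in bases and by features of their sequence, against the dashed line for all unmasked summits; runs of 50 to 99 bases and windows with tandem runs lie below it.

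Partner motifs were searched in the same windows. ETS factors, which act beside GATA factors in endothelial and blood cells, bind the words AGGAAA or AGGAAG or CGGAAA or CGGAAG. One of these was present at 47.7% of masked and 45.8% of unmasked summits (adjusted exact p = 0.364). Of 20 motifs other than GATA, 2 differed between masked and unmasked summits. The E-box CAGCTG, bound by factors of the TAL1 kind, was present at 110 masked summits (5.52%) and 7.87% of unmasked ones (adjusted exact p = 0.00117). GGGCGG, the GC box of SP and KLF factors, was present at 5.27% of masked and 9.70% of unmasked summits (adjusted exact p = 8.07e-11). Flanks showed the same order, with CAGCTG in 3.11% of masked and 5.10% of unmasked flanks and GGGCGG in 1.95% and 4.41%. Over flanks of the same mask state, the ratio of the masked to the unmasked odds ratio was 1.15 for CAGCTG and 1.20 for GGGCGG. Neither ratio passed the threshold (normal approximation, n = 1992 masked summits, adjusted p = 0.494 and 0.344). The mean GC content of the windows was 48.5% ± 8.59 (SD, n = 1992) and 51.7% ± 9.82 (SD, n = 22058), and its part in these differences was not tested.

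Against masked flanks the partner motifs gave another order. The ETS words had an odds ratio of 3.00 (interval 2.71 to 3.31) at masked summits over masked flanks. For unmasked summits over unmasked flanks it was 2.38 (ratio 1.26, adjusted p = 0.00013, normal approximation with n = 1992 masked summits here and in the rest of the paragraph). The hormone receptor half-site AGGTCA, recognised by many nuclear receptors of hepatocytes, was present at 12.1% of masked summits and 5.12% of masked flanks, with a ratio to the unmasked odds ratio of 1.35 (n = 1992, adjusted p = 0.00304). For CACCC, a short word of KLF factors, that ratio was 1.34 (n = 1992, adjusted p = 7.2e-05). For the RUNX words TGTGGTC and TGTGGTT it was 0.630 (n = 1992, adjusted p = 0.0143), with 2.46% of masked summits and 4.46% of masked flanks. The forkhead words, a T then A or G then TT, then G or T, A or G and C or T, were present at 23.7% of masked summits and 25.8% of masked flanks, with a ratio of 0.838 (n = 1992, adjusted p = 0.0143). The stricter forkhead word TGTTTAC went the other way over masked flanks, at 1.91% of masked summits and 1.18% of masked flanks (odds ratio 1.63, adjusted exact p = 0.021). Its ratio to the unmasked odds ratio was 0.871 (n = 1992, adjusted p = 0.768). A control word with no known partner, ATATGC or TTATGC, was present at 3.97% of masked and 3.88% of unmasked summits. Flanks of the same mask state held it more often, at 6.27% and 5.99%. The odds ratios over flanks were 0.617 and 0.634 (adjusted exact p = 7.4e-05 and 1.27e-29). A lower share at summits than in flanks was thus not particular to the RUNX words. The ratio of the control word's odds ratios was 0.974 (n = 1992, adjusted p = 0.918). CTCF and YY1, which are known to bind some repeats, had matches at 0.201% and 0.301% of masked summits and 0.462% and 0.458% of unmasked ones. The NFI word had 0 matches at masked and 2 at unmasked summits, too few to compare.

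**Figure D3:**
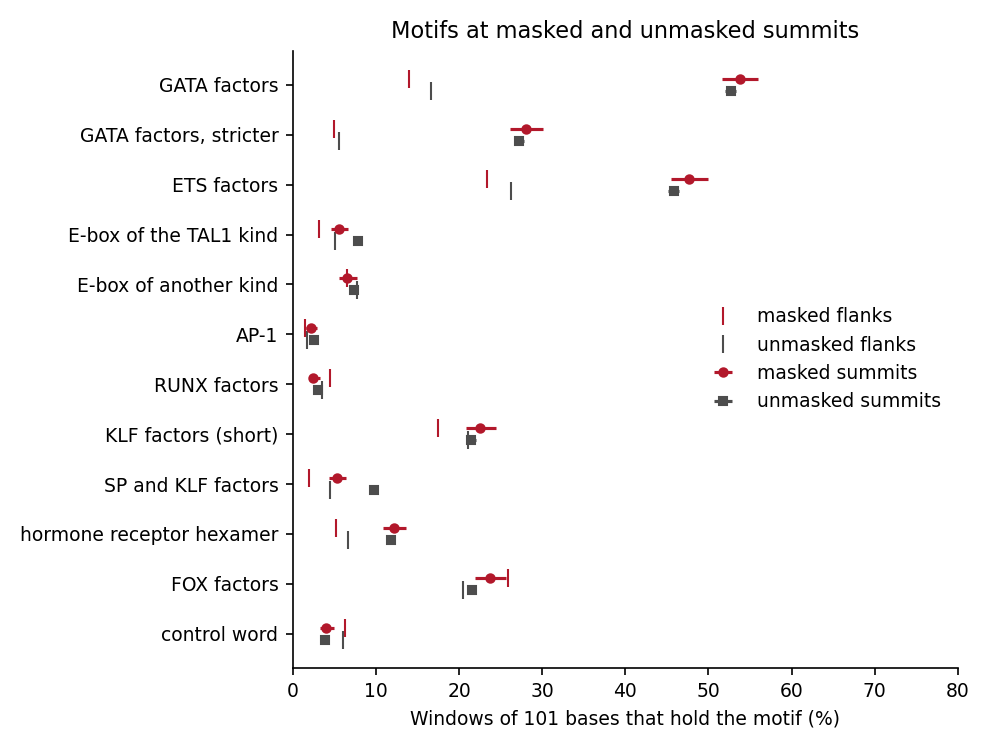
Share of windows that hold each motif (percent, horizontal axis) at masked (circles) and unmasked (squares) summits with 95% Wilson intervals, and in flanks of the same mask state (ticks). Motifs in at least 2% of masked summits are shown. WGATAR stands far above its flanks in both groups (53.8% and 52.7%). The GC box and the E-box of the TAL1 kind are lower at masked summits, and also in masked flanks.

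The masked summits lay away from promoters more often. Promoters held 228 (11.4%) of them and 22.5% of unmasked summits (adjusted p = 5.85e-34, Fisher's exact test over 4 classes). Introns held 922 (46.3%) against 39.9% (adjusted exact p = 6.18e-08), and intergenic sequence 807 (40.5%) against 35.2% (adjusted p = 3.61e-06). Exons of protein-coding genes held 35 (1.76%) against 2.38% (adjusted exact p = 0.0875). The median distance to a start site was 18752 and 15261 bp, and 64% of masked and 57.6% of unmasked summits lay over 10 kb away (Fisher's exact test, p = 2.8e-08). Over 50 kb the shares were 27.8% and 26.0%, with a difference of 1.78 points whose interval ran from -0.23 to 3.86 (Fisher's exact test, p = 0.0885). The intron and distance differences turned in replicate 1's own list, to -5.90 and -0.627 points, and the promoter difference there was -1.18 points.

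Masked peaks were somewhat weaker. Their median rank by the deposited signal score was 13223, and that of unmasked peaks 11916.5 of 24050. The list was split by rank into 5 bins of equal size, of which bin 1 is the strongest. Bin 1 held 350 masked summits (17.6%), against 20.2% of the unmasked ones (Fisher's exact p = 0.00454). In bin 1 77.7% of masked and 76.0% of unmasked summits carried WGATAR, and in bin 5 34.9% and 32.5%. The site was less frequent at weaker peaks in both groups, and the difference between the groups passed the test in none of the 5 bins (Fisher's exact test, adjusted p from 0.239 to 0.745).

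Replicate support differed in opposite ways for the 2 replicates. The replicates' own lists derive from other alignment files than the combined list, per the deposited README, and the part of that difference in processing was not tested. A peak of replicate 1's own thresholded list overlapped 17.0% of all peaks of the combined list, 19.1% of masked peaks (381) and 16.9% of unmasked ones (adjusted p = 0.0215, Fisher's exact test over 4 lists). A peak of replicate 2's list overlapped 82.5% of all, 78.1% of masked (1556) and 82.9% of unmasked peaks (adjusted exact p = 6.29e-07). Both replicates' lists held 16.3% of all, 17.7% of masked and 16.1% of unmasked peaks (adjusted exact p = 0.0944), and the conservative list 38.2%, 39.4% and 38.0% (adjusted p = 0.238). Neither replicate's own list held 408 masked peaks (20.5%), against 16.4% of unmasked ones. Replicate 1's list had 4287 summits and replicate 2's 26314, and 11.1% (interval 10.2% to 12.1%) and 8.0% (7.68% to 8.34%) of them were masked.

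By uniqueness, replicate 1's list held a larger share of the members whose windows were not all unique. Among the 1464 members with only unique words, replicate 1's list held 16.2%, and that of replicate 2 held 81.0%. Among the 528 others, 27.3% (interval 23.6% to 31.2%) and 70.1% (66% to 73.8%) were. Of the 236 members with an AC tandem run, replicate 1's list held 30.1% and the other one 67.8%. A comparison of only summits with unique words was chosen after seeing the data. In it the masked minus unmasked difference for replicate 1 was -0.464 points, with an interval from -2.33 to 1.57. The difference was 0.941 points without tandem runs and 0.515 (interval -1.40 to 2.55) without promoter peaks. How far uniqueness, tandem runs and genomic class each account for the pooled difference was not tested. Unmasked windows with a tandem run also had a high share in replicate 1, 25.7% of 191.

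By bin of signal, replicate 1 held 66.9% of masked and 59.5% of unmasked peaks in bin 1 (adjusted p = 0.00957 over 5 bins, Fisher's exact test). In bin 2 it held 22.1% and 15.5% (adjusted exact p = 0.00261). In bin 5 it held 6.08% and 2.77% (adjusted exact p = 0.00222). The masked share was higher in each of the 5 bins, and in bin 3, with 5.32% and 4.31%, it missed the threshold. With unique words only, none of the 5 bins passed, with differences of 0.960, 1.71, -0.695, 0.108 and 1.88 points from bin 1 to bin 5. Bin 1 also missed it at an IDR of 0.01, without promoter peaks and without tandem runs. Within promoters, introns and intergenic sequence taken apart, none of the 3 differences for replicate 1 passed, with 18.8% of masked and 19.6% of unmasked peaks in introns. For replicate 2 the masked share was lower in introns (78.7% and 82.6%, adjusted exact p = 0.00652). In intergenic sequence it was also lower (77.6% and 82.8%, adjusted exact p = 0.000976). At promoters the difference for replicate 2 missed the threshold (78.9% and 83.9%, adjusted exact p = 0.0544). Without promoter peaks the difference for replicate 1 was 0.515 points, and with the relaxed lists cut to equal length it was 6.49 (adjusted exact p = 3.65e-08).

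**Figure D4:**
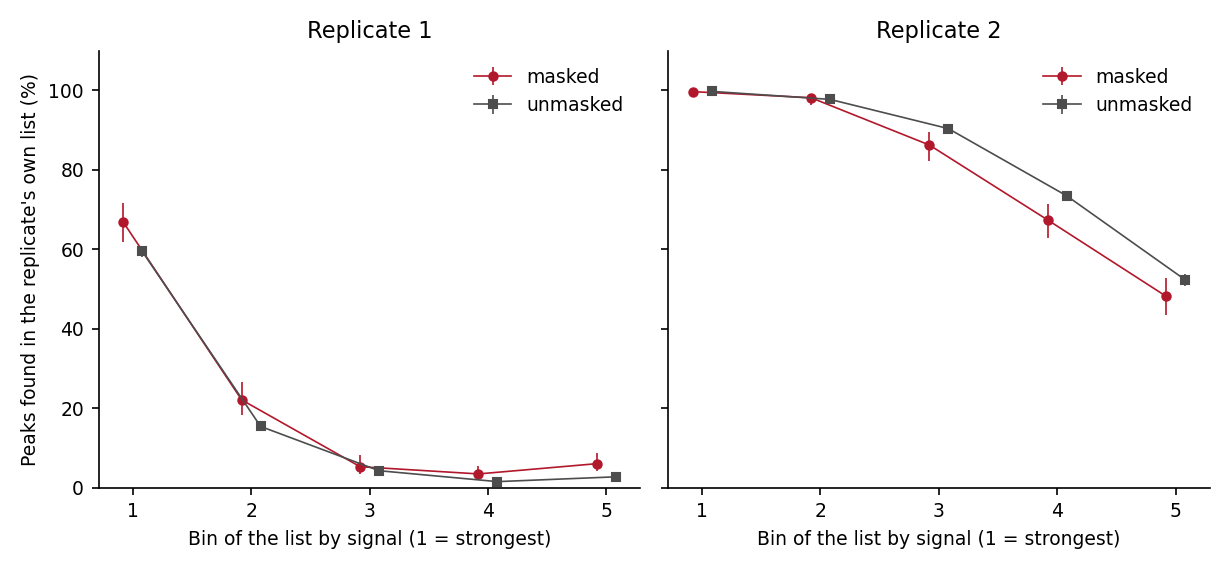
Share of peaks of the combined list found in each replicate's own list (percent, vertical axes) by bin of signal (horizontal axes, 1 is the strongest), for masked (circles) and unmasked (squares) summits with 95% Wilson intervals. In replicate 1 the masked share is above the unmasked one in every bin (66.9% and 59.5% in bin 1); in replicate 2 it is below it from bin 3 on.

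Members whose sequence is repeated at other members were few. By alignment of windows of 100 bases to each side, 205 of 1992 members (10.3%) had a similar window at another member, in 39 groups, against 297 of 22058 unmasked summits (1.35%) in 100 groups. Members of a group share their sequence and are not independent. Members with such a partner carried WGATAR in 62.4% and were in promoters in 1.46%. The largest 2 groups had 26 members each and differed in their support by the replicates.

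The first of these groups, of which 4 sequences are shown above, carried WGATAR in 26 of 26 windows. The word was TTATCT in 23 of them, and in the 3 others the WGATAR stood at another place of the shared sequence. It lay in introns in 7 and between genes in 19, on 13 chromosomes. Replicate 1's list held 16 of the 26 and replicate 2's 23. The strongest member, 194761 bp from the start site of Mgat4c, had rank 976, and the median rank was 9199.5. The median identity to the central member was 83.7%, and a median of 72.9% of the 36-base words were unique.

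The same sequence was common elsewhere in the genome. An alignment of the central window found 51715 copies on chromosomes 1 to 19 and X, and 30 of these held any summit of the combined list. Of the 50421 copies that span the site, 77.3% had WGATAR at its place, and 27 of the 30 copies with a summit did. Summits numbered 6.92 per 10000 copies with the site and 2.63 per 10000 copies without it, the latter from 3 summits. How many of the other copies can be mapped was not measured.

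The second group of 26 carried WGATAR in 14 windows, and replicate 1's list held 2 and replicate 2's 18 of them. Its strongest member lay in an intron of Trak1 at rank 2428, and 28289 copies were found. Of the 28273 copies that span the site of its central window, 7.81% had WGATAR there. Among the 25 of them with a summit 8 had it and 17 did not. Summits numbered 36.2 per 10000 copies with the site and 6.52 per 10000 copies without it. The next groups had 12, 12, 10 and 6 members, with WGATAR in 8, 5, 5 and 3 of them. Their strongest members lay near Wwp1 (rank 3289), in Txnrd1 (rank 1252), in Lpgat1 (rank 1940) and near Trim41 (rank 4826). Those of Txnrd1, which encodes thioredoxin reductase, and Trim41 had no WGATAR within 50 bp.

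The strongest masked peak, rank 5 of 24050, was at the promoter of Pzp, an alpha-2-macroglobulin-like protease inhibitor made by the liver. Its summit at chr6:128527350 lay 630 bp from the start site, with a signal score of 311.9 and a masked run of 127 bases. It ranked 10 in replicate 1's relaxed list and 7 in replicate 2's, so it was near the top in both. Of the 10 strongest masked peaks, 9 carried WGATAR, and the AC repeat near Gm10295 did not.

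Several of the 10 stood higher in one replicate than in the other. The peak near Cdx4 on X had rank 8 in replicate 1 and 120 in replicate 2, and the one near Gm10295 had 13 and 334. The peak 1268 bp from a start site of Ephb4, a receptor of endothelial cells of veins, went the other way with 997 and 21. The peak in an intron of Plxnc1 had ranks closer to each other, 45 and 86. The relaxed lists have different lengths, so these ranks describe the peaks within each list only.

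**Figure D5:**
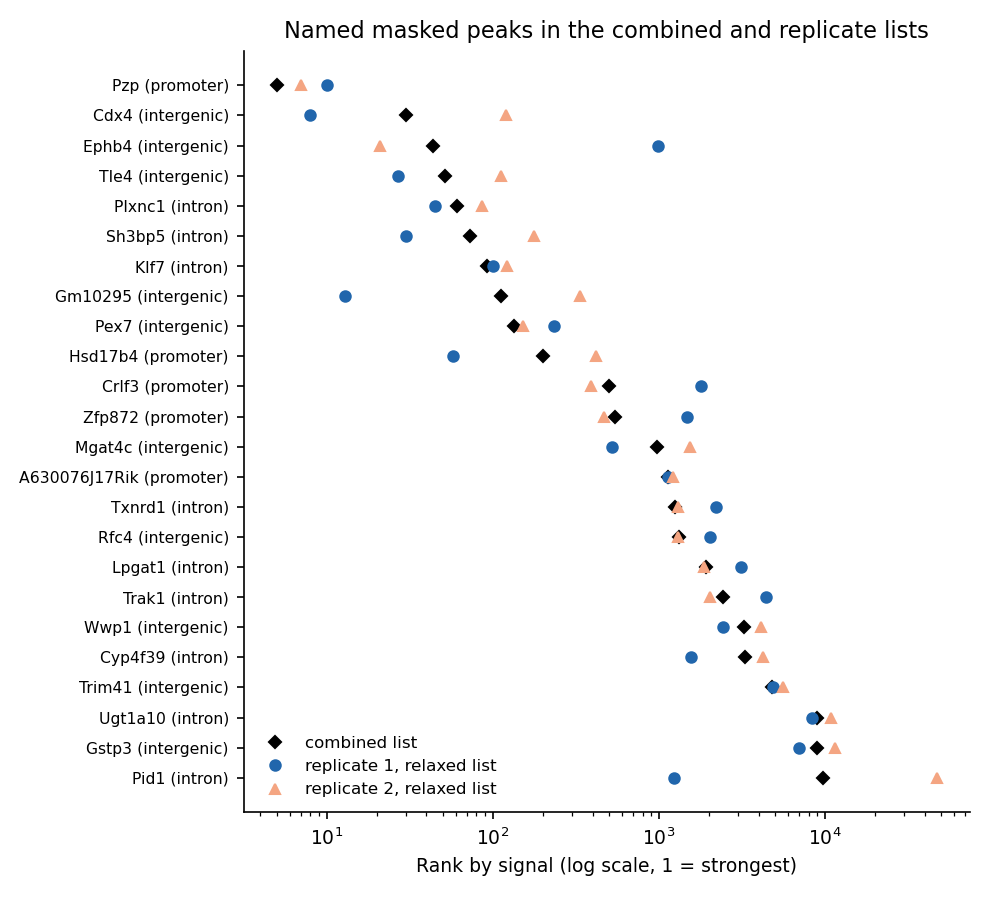
Rank by signal (horizontal axis, log scale, 1 is the strongest) of the named masked peaks in the combined list (diamonds) and in the relaxed lists of replicate 1 (circles) and replicate 2 (triangles), each row a peak with its gene and class. Pzp is near the top in all 3 lists (5, 10 and 7), and the peak in Pid1 has rank 1231 in replicate 1 and 47312 in replicate 2.

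At promoters the next strongest masked peaks were those of Hsd17b4 (rank 202), an enzyme of peroxisomal fatty acid oxidation, Crlf3 (rank 504), Zfp872 (rank 545) and A630076J17Rik (rank 1145). Hsd17b4 had an AC run and 1 WGATAR, with rank 58 in replicate 1 and 418 in replicate 2. Crlf3 had 2 TTATCT sites, a masked run of 21 bases and only unique words, with ranks of 1808 and 394. Zfp872 also had 2 TTATCT sites.

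The members with 4 or more WGATAR within 50 bases of the summit were tandem repeats or held several near words. The strongest was near Rfc4 (rank 1330) with 4 sites, followed by introns of Cyp4f39 (rank 3312) with 4 and Ugt1a10 (rank 8970) with 11. Next came Gstp3 (rank 8974) with 5 and Pid1 (rank 9840) with 8. Pid1 was absent from both replicates' thresholded lists and had ranks of 1231 and 47312 in the relaxed lists of replicates 1 and 2.

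Of 21728 protein-coding genes, 1584 (7.29%) had a masked summit in the gene or within 10 kb, and 47.6% had any summit. Of 30 genes of the sinusoidal endothelium, 10 had a masked summit and 28 any summit. Of the 167 summits at these genes 12 (7.19%) were masked, close to the 8.28% of all summits. The 10 genes were Eng, Meis1, Plpp3, Flt1, Clec4g, Oit3, Dnase1l3, Tek, Maf and Kdr. Eng, a co-receptor for ligands of the TGF-beta family, had 1 masked summit of 9, at rank 1809 and without WGATAR. Meis1, a homeobox gene, had one at rank 2325, and Plpp3, a lipid phosphatase, had 3 of 7 with the strongest at rank 2660. Flt1, a receptor for vascular growth factors, had one at rank 2891. The masked summit of Clec4g, a lectin of sinusoidal endothelium, lay 163 bp from its start site at rank 3518, with 1 WGATAR, and was in both replicates' lists. Every one of the 10 had only unique words around its strongest masked summit.

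Among 29 hepatocyte genes, 4 had a masked summit: Ass1, of the urea cycle, at rank 3732, Apoa1 and its neighbour Apoc3 by the same peak at the promoter of Apoa1 at rank 11697, and Tat, of tyrosine breakdown, at rank 20824. The summit in Tat had 10 WGATAR in a masked run of 100 bases and was in neither replicate's list. Of the 29 genes 25 had any summit, and 3 of their 63 summits (4.76%) were masked, against 8.28% of all summits. Of 24 liver transcription factors 5 had a masked summit and 22 any, with 5 of 110 summits (4.55%) masked. Of 8 GATA and FOG genes 2 had a masked summit, Gata4 itself with 1 of 12 summits at rank 15292 and Zfpm2 at rank 19791. Any summit was found at 6 of the 8, with 2 of 41 summits (4.88%) masked.

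Among the other lists, 4 of 14 genes of repeat silencing had a masked summit and 10 any, with 5 of 25 summits (20%) masked. The strongest, at rank 9368, lay in an intron of Cers2 near Setdb1, a histone methyltransferase. Over all genes 7.29% had a masked summit and 47.6% any. Of 15 lymphocyte genes 3 had a masked summit and 7 any, with 6 of 15 summits (40%) masked. The strongest lay in Etfb close to Nkg7 at rank 5069, and Lck had 4 of 7. Of 20 genes of Kupffer cells 1 had a masked summit, Ctss at rank 4013, and 4 any, with 1 of 14 summits (7.14%) masked. Of 20 genes of stellate cells 1 had a masked summit, Bmp10, at rank 3682 and 271 bp from its start site. Any summit was found at 10 of these 20, with 1 of 21 summits (4.76%) masked. Of 20 ubiquitous genes 2 had a masked summit and 17 any, with 2 of 34 summits (5.88%) masked. By count of masked summits alone, the long locus annotated as Gm20388 came first with 12 of 140 summits, and Fgfr2 next with 5 of 56. Both loci held many summits, and their masked shares lay close to the 8.28% of all summits.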

How the data were processed

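GATA4 ChIP-seq of whole mouse liver was used as deposited peak lists on the build mm10. Per the README deposited with the samples, the combined (optimal) and conservative lists and the relaxed lists derive from one set of the authors' alignment files, and the replicates' own thresholded lists from another set. The order and settings of these runs are not stated there. Neither the aligner nor the peak caller is named in the labels or headers. The lists hold a signal score per peak without a unit and an IDR score, both deposited by the authors, which were used to rank and filter peaks within a list. The lists carry no read counts; the depth is unknown and limits of detection were not computed.

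The mask was read from the RefSeq GRCm38.p6 sequence, whose masking program is not named in the files. Summits were annotated with protein-coding genes of GENCODE release 21 (basic). Windows of 50 bases to each side of the summit were searched on both strands for 22 motifs, with flanks 500 bp to each side. Beyond those spelled out with the results, these were the E-boxes CATCTG and CACGTG, AP-1 (TGACTCA or TGAGTCA), HNF4, CRE (TGACGTCA), a MEF2-like word (TATTTATA) and CEBP. The less strict forkhead words and the CEBP, CTCF, NFI and YY1 words allow several bases. Shares were compared with two-sided Fisher's exact tests (scipy 1.17.1) and Benjamini-Hochberg adjustment within each family, with Wilson and Newcombe intervals of 95%. Peaks overlapped when they shared 1 base or more. Similar windows were found with blastn 2.17.0 (at least 70% identity over 80 bases). The code was tested on simulated data.

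The members, gene lists and motifs were chosen with earlier results of these data known. Named peaks are the 10 strongest masked ones, the 5 strongest at promoters, the strongest of each of the 6 largest groups, the 5 strongest with at least 4 WGATAR, and the strongest of each gene list or those up to rank 2000; the other genes of a list that are named were added after seeing the data, as were the subsets by tandem run and by uniqueness. Tasor, of the repeat silencing list, was left out as it did not match the annotation by name. Some named peaks and genes and 1 of the motifs are not reported here.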

Additional observations from a re-analysis of the deposited data

Results flagged for a closer look

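The difference in WGATAR between masked and unmasked summits was not the same in all classes. The odds ratio of masked against unmasked summits was 1.44 at promoters, 0.756 in introns and 0.945 in intergenic sequence. The ratio of the promoter to the intron odds ratio was 1.91 (interval 1.39 to 2.61, adjusted p = 0.000178 over 3 contrasts, normal approximation on the log scale, n = 228 masked promoter summits). The ratio of promoter to intergenic was 1.53 (n = 228, adjusted p = 0.0144) and that of intron to intergenic 0.800 (adjusted p = 0.0295). Promoters held 228 masked summits, introns 922 and intergenic sequence 807. AC tandem runs were in 17 of the masked promoter windows and 120 of the intron windows. Without windows of tandem runs the promoter to intron ratio was 1.60 (interval 1.13 to 2.26, n = 190 masked promoter summits, adjusted p = 0.0123) and still past the threshold. It missed the threshold in the conservative list (1.81) and with AGATAA (1.60), and turned in replicate 1's own list (0.533).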

How the results depend on the processing

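Over 20 settings, 227 alternative values were computed, of which 21 turned in direction, 37 were no longer past the threshold, 16 newly passed it and 1 count moved by over 1.5 times. The others kept direction and side, or for counts stayed within that range, and the cause of the changes was not tested. Those without tandem runs and with unique 36-base words only were chosen after seeing the data.

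The masked share of summits (8.0% to 11.1% over the replicates' own lists) and WGATAR over masked flanks (odds ratio 6.64 to 6.74) kept their calls under each alternative run, but not their size: the share was 3.74% with at least 51 bases of the window masked and 2.65% with runs of at least 50, and the odds ratio ran from 5.26 with windows of 100 bp to 11.2 in the conservative list. The difference in WGATAR between masked and unmasked summits changed sign or call under several: it was -1.69 points with at least 51 bases of the window masked, -7.37 (past the threshold) with runs of at least 50 bases, -4.18 in the conservative list, -4.13 (past it) without promoter peaks, 3.38 with windows of 100 bp, 4.39 without tandem runs, and -11.9 to 2.74 over the replicates' own lists. Its ratio to the unmasked odds ratio over flanks was 1.08 with runs of at least 50 bases, 1.09 in the conservative list and 1.18 with AGATAA, none past the threshold, and 0.757 to 1.31 over the replicates' lists. The promoter against intron ratio was 1.60 with AGATAA and 1.81 in the conservative list, both past it no longer, and 0.533 to 2.08 over the replicates' lists. The WGATAR difference at promoters was -25.5 to 7.5 over the replicates' lists. In intergenic sequence it was 0.574 at an IDR of 0.01, 0.531 with windows of 100 bp, 3.86 with unique words, 3.59 without tandem runs and -12.6 to 0.198 over the replicates' lists, and it passed at -9.31 with at least 51 masked bases and at -16.9 with runs of at least 50. With windows of 100 bp, 4 partner motifs differed in place of 2, and without tandem runs 3.

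Over the replicates' own lists, the promoter difference was -13.7 to -1.18 points, the intron one -5.90 to 7.90, the exon one -1.01 to -0.603, that over 10 kb -0.627 to 8.48, and that in bin 1 by signal -3.82 to -2.18. In the conservative list the intron difference was 2.84, the intergenic 1.30, that over 10 kb 0.586 and that in bin 1 -1.90, none past the threshold. The exon difference passed it at -1.73 with at least 51 masked bases, -1.55 with runs of at least 50 and -0.652 with promoters of 2.5 kb. The distance difference missed it at 1.78 over 50 kb, and the rank difference at -1.42 with an IDR of 0.01, -0.996 for the strongest 10% of peaks and -2.03 with unique words.

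For replicate 1 the difference in support was 1.41 points with an overlap of 50% of both peaks, 0.515 without promoter peaks, 0.941 without tandem runs and -0.464 with unique words, but 5.40 with at least 51 masked bases, 6.31 with runs of at least 50, 4.37 at an IDR of 0.01 and 6.49 with relaxed lists cut to equal length; within bin 1 it was -0.163 with the stricter overlap, and within bin 3 -0.695 with unique words. For replicate 2 it was -2.10 with unique words, -11.2 with at least 51 masked bases and -13.7 with runs of at least 50. For both replicates it was 3.78 with at least 51 masked bases, 4.36 with runs of at least 50 and 4.08 at an IDR of 0.01, all past the threshold, -0.109 without promoter peaks and -0.524 with unique words. For the conservative list it was 5.45 at an IDR of 0.01 and -2.41 without promoter peaks.

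No paired analysis was possible because the series has 1 group. With 2 replicates from 1 donor identifier, and lists of 4287 and 26314 summits, the differences between replicates limit how far any of these shares can be read.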
